A study of Mus musculus with 32 samples.

Results

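Kruppel-like factors (KLFs) are transcription factors that bind GC-rich and CACC-type DNA through zinc fingers at the end of the protein, and 10 genes of the family were followed here over the day in interscapular brown adipose tissue (iBAT): Klf2, Klf3, Klf4, Klf6, Klf7, Klf9, Klf10, Klf11, Klf13 and Klf15. They were chosen by name, as the rows of the deposited count matrix whose Ensembl identifier maps to these symbols. All 10 were found among the 50686 rows, and all 10 were among the 15505 genes that passed the filter on low counts. The tissue came from non-fasted male C57BL/6J wild-type mice aged 10 weeks, fed chow, housed at 22 °C under 12 h of light and 12 h of dark, and killed by inhaled CO2. Time is Zeitgeber time (ZT), in hours after lights on. The light phase, in which mice rest, runs from ZT0 to ZT12, and the active dark phase follows. The mice formed 8 groups, ZT0 to ZT21 at intervals of 3 h, that differed by their labels in time and in sequencing lane, with 4 mice in each and 1 library per mouse, and no mouse was sampled again.

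Members of the family differ in what they do once bound to DNA. KLF9, KLF10, KLF11 and KLF13 recruit the SIN3A corepressor, KLF3 recruits CtBP, and KLF2, KLF4, KLF6, KLF7 and KLF15 can activate transcription through their own activation domains. In fat, several members take part in adipocyte formation in either direction. Klf9 and Klf15 are known targets of glucocorticoids, Klf2 and Klf4 are well known in vascular endothelium, where blood flow induces them, and Klf10 and Klf11 are inducible by TGF-beta.

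Total counts were alike, from 16300770 to 18254659 per library with a median of 17418661. Of the 8 genes of the brown adipocyte list, 5 are tied more closely to brown fat. Ucp1, the heat-producing uncoupling protein, had a mean of 1275 to 2973 CPM (counts scaled to a common library total) and Cidea, a lipid droplet protein, 1746 to 1893 CPM over the time points, while Dio2, Ppargc1a and Prdm16 had means of 33.9, 40.8 and 43.9 CPM over all libraries. The list's sum lay between 9450 and 15400 CPM in every library, much of it from Fabp4 (mean 6049 CPM), Plin1 and Adipoq, which white fat expresses as well. Skeletal muscle RNA varied widely, with a sum of 7 muscle markers from 54.7 to 5470 CPM, over 1000 CPM in 15 of the 32 libraries, found at each time point, and its mean ran from 388 ± 661 CPM at ZT6 to 2520 ± 2150 at ZT15 (SD, n = 4). None of its 7 genes passed the 24 h cosine (edgeR, 0 of 7 also at an unadjusted p under 0.05), though their median fitted amplitude was 1.76 log2, and the SDs within time points ran from 661 to 2700 CPM for the sum. Each time point was sequenced on a single lane: ZT0, ZT3 and ZT6 on lane 2, ZT9, ZT12 and ZT15 on lane 3, and ZT18 and ZT21 on lane 4, so that between lanes, lane and time cannot be told apart. Replicates are different mice; in this bulk tissue, fewer cells of a type and less RNA per cell cannot be told apart.

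Most of the family varied with time of day, though not in the same shape. With edgeR's quasi-likelihood test, 9 of the 10 members differed between the 8 time points at a Benjamini-Hochberg (BH) adjusted p under 0.05, where 39.8% of all tested genes did. A 24 h cosine passed the same threshold in 7 members, against a background of 36.1%. JTK, the rank test of the study, called 5 members as oscillating at P under 0.05 against 36.4% of all genes, and 4 after BH adjustment against 27.1%. The 5 were Klf3, Klf6, Klf9, Klf13 and Klf15, and Klf6 was lost on adjustment. The median cosine amplitude, which is the distance from the daily mean to the peak, was 0.315 on the log2 scale for the members and 0.139 for all tested genes. Without the 15 libraries rich in muscle RNA, which left 17 libraries and 1 of ZT15, the cosine was called in 5 members, any time difference in 5 and JTK in 3. Of the 5 members called by JTK in all libraries, Klf3 and Klf15 were still called there, Klf6, Klf9 and Klf13 were not, and Klf4 was added. The cosine amplitude there was 0.33 log2 for Klf9, 0.34 for Klf13 and 0.16 for Klf6. In all libraries these were 0.35, 0.36 and 0.24 log2. With the muscle level as a covariate the cosine gave 7 and the time difference 9.

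**Figure D1:**
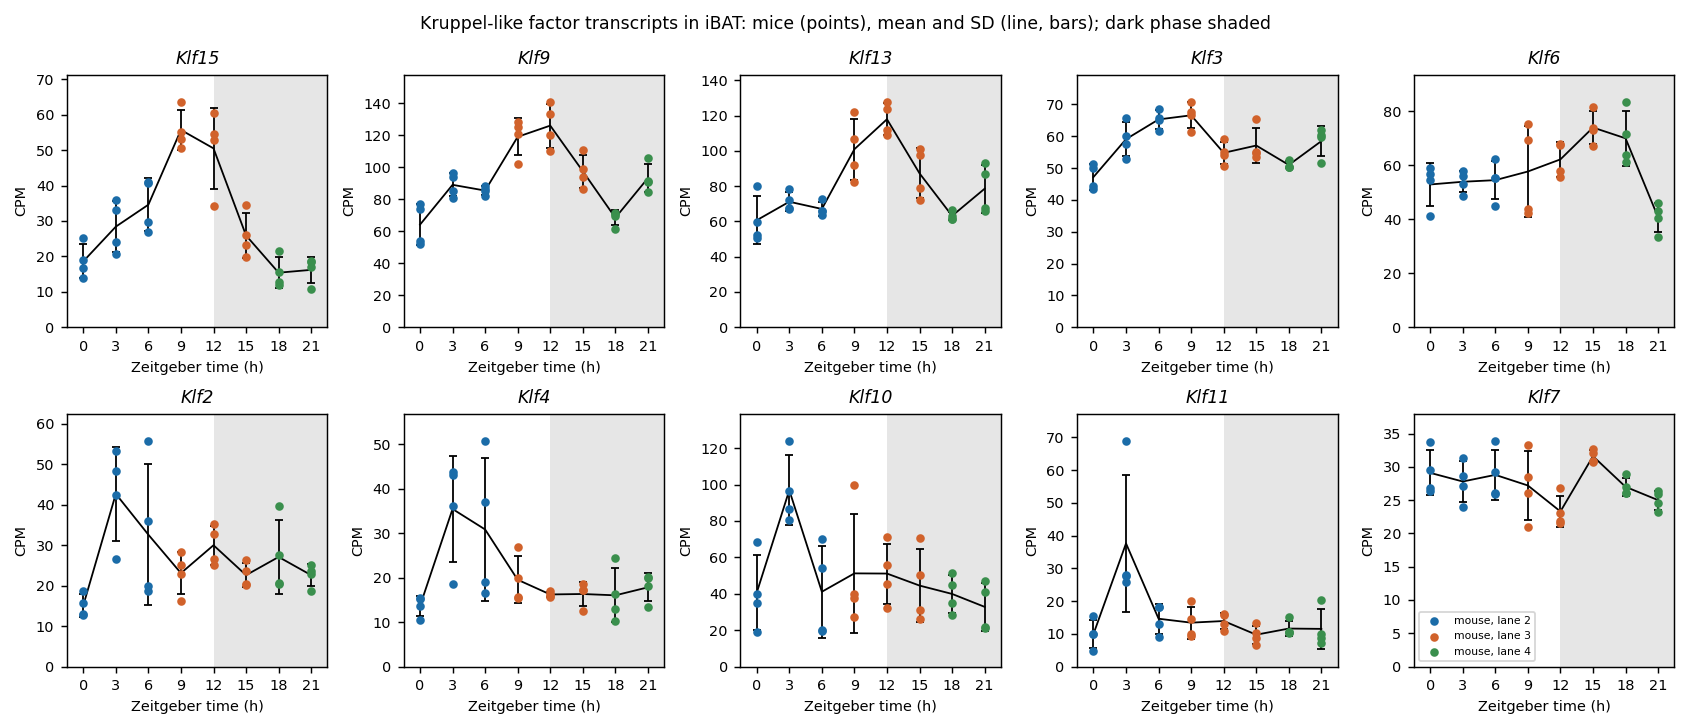
CPM of each of the 10 members against Zeitgeber time in hours, with 1 point per mouse coloured by sequencing lane, the mean as a line, the SD (n = 4) as bars and the dark phase shaded. Klf15, Klf9 and Klf13 are high at ZT9 and ZT12, whereas Klf2, Klf4, Klf10 and Klf11 have their highest mean at ZT3 and Klf6 at ZT15.

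Klf15 had the largest fitted cosine amplitude of the 10. Between its highest and lowest time point means the ratio was 3.62, against 3.87 for Klf11. The highest mean of Klf11, at ZT3, includes 1 mouse at 68.9 CPM, where the others had 25.8 to 28.1 CPM. The KLF15 protein promotes glucose uptake and amino acid breakdown and takes part in adipocyte differentiation. The gene (ENSMUSG00000030087) lies at chr6:90462576-90475238 on the plus strand (GRCm38, GENCODE). At ZT9 the 4 mice had 50.7, 53.2, 55.1 and 63.7 CPM, and at ZT18 they had 11.8, 12.7, 15.6 and 21.5 CPM. Every mouse at ZT9 was above every mouse of ZT0, ZT3, ZT6, ZT15, ZT18 and ZT21. Among these groups ZT15 alone shares the lane of ZT9, and the step from ZT6 to ZT9 was not called (edgeR, adjusted p = 0.112). The mean at ZT0 was 18.6 ± 4.81 CPM (SD, n = 4). It was 55.7 ± 5.68 CPM by ZT9, still 50.5 ± 11.4 CPM by ZT12, and 15.4 ± 4.36 CPM by ZT18. The fitted cosine peaked at ZT9.06 ± 0.38 (SE) with an amplitude of 0.91 ± 0.09 log2, a 3.54-fold change from trough to peak (adjusted p = 6.98e-09; exact JTK P = 1.48e-09). A larger amplitude was found in 1.15% of all tested genes.

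The 250 bases before the RefSeq start of Klf15 (GRCm38.p6, plus strand, chr6:90462326-90462575) are shown because they hold E-boxes, the letters CACGTG that the core clock proteins CLOCK and BMAL1 are known to bind. E-boxes are in capitals.
Klf15: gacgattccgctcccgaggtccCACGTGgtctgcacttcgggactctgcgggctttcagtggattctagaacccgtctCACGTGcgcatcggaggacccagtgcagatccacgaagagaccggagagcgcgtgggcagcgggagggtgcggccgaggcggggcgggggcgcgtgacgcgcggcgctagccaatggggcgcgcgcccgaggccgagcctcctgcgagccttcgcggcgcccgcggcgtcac
They begin at -228 and -172 from the start, and one more match begins at -3 and spans the start. RefSeq promoters of 300 bases, from 250 before to 50 after the start, were at hand for 9 members (not for Klf10). CACGTG, which reads the same on both strands, was in 4 of these 9 and in 7.15% of all 32851 promoters of that length. The other 3 members with it are Klf4, Klf11 and Klf6, whose E-boxes begin at -182, -214 and -43 and are given with 12 bases on each side, at chr4:55532640-55532669 (minus strand), chr12:24651145-24651174 (plus) and chr13:5861434-5861463 (plus).
Klf4: cgcccccgccccCACGTGcgcggagtttgt
Klf11: cccggaccaaaaCACGTGccgccgcccgcc
Klf6: ctccaagctggtCACGTGgggggagaaggg
Both strands were searched for each further motif. The D-box (TTATGTAA), the cAMP response element (TGACGTCA), the RORE core (AGGTCA) and the core of a glucocorticoid response element (TGTTCT) were in 0 of the 9, against 0.938%, 1.79%, 16.3% and 19% of all promoters. The first 5 letters of the cAMP element alone (TGACG) were in 6 of the 9 against 20.8%. Of sites of the kind that KLF and SP proteins bind, the GC box (GGGCGG) was in 8 of the 9 against 35.7% and the CACC box (CCACCC) in 4 against 31.5%. These windows are rich in G and C, at 59.2% to 78.4%, and a match of letters is a description of the window. Klf9 and Klf13, which peaked near Klf15, have no CACGTG in theirs.

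Klf9 and Klf13 had similar profiles, high around the change from light to dark. KLF9 is induced by glucocorticoids and by thyroid hormone, and KLF13 is its close relative in the group that binds SIN3A. Klf9 (ENSMUSG00000033863) is at chr19:23141226-23168134 on the plus strand and Klf13 (ENSMUSG00000052040) at chr7:63886351-63938915 on the minus strand. At ZT12 Klf9 stood at 110, 120, 133 and 141 CPM and at ZT0 at 52.1, 54.0, 73.6 and 76.8 CPM. Klf13 stood at 109, 112, 124 and 128 CPM at ZT12 and at 50.4, 52.3, 59.9 and 80.1 CPM at ZT0. For both genes all mice of ZT12 lay above all mice of ZT0. The fold of ZT12 over ZT0 was 1.97 for Klf9 (log2 0.98 ± 0.11 SE, adjusted p = 7.44e-07) and 1.95 for Klf13 (log2 0.96 ± 0.13 SE, adjusted p = 1.54e-05). Fitted peaks were ZT10.7 ± 0.7 for Klf9 (amplitude 0.35 ± 0.06 log2, adjusted p = 0.000256) and ZT11.6 ± 0.7 for Klf13 (amplitude 0.36 ± 0.07 log2, adjusted p = 0.000227). With lane as a factor in edgeR the cosine passed for Klf9 (adjusted p = 0.0127) and not for Klf13 (0.274).

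The lowest means of Klf9 were at ZT0 and ZT18, with a higher mean between them at ZT21. At ZT18 its 4 mice had 61.7, 69.4, 71.0 and 71.6 CPM. At ZT21 they had 84.8, 90.8, 91.2 and 106 CPM, above all mice of ZT18 and of ZT0. The rise from ZT18 to ZT21, within lane 4, was 0.45 ± 0.11 log2 (SE, adjusted p = 0.0276), and Klf9 fell by 0.54 log2 (SE 0.11) from ZT21 to ZT0, across lanes (adjusted p = 0.00272, and 0.0595 in the fit of those 8 libraries alone). Leaving out 1 of 7 single mice of ZT18 or ZT21 took the adjusted p of the rise to between 0.0556 and 0.0971. For Klf13 the means were 63.2 ± 2.44 CPM at ZT18, 78.6 ± 13.7 at ZT21 and 60.7 ± 13.6 at ZT0, and neither step passed, with overlapping mice and adjusted p of 0.248 and 0.0867. A 12 h component beside the 24 h one was called in 0 of the 10 members by edgeR, where 0.464% of genes had one; for Klf9 the adjusted p was 0.272. At an unadjusted p under 0.05 it was 7 members, where 17.6% of genes had one, and no other tool was run on it.

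**Figure D2:**
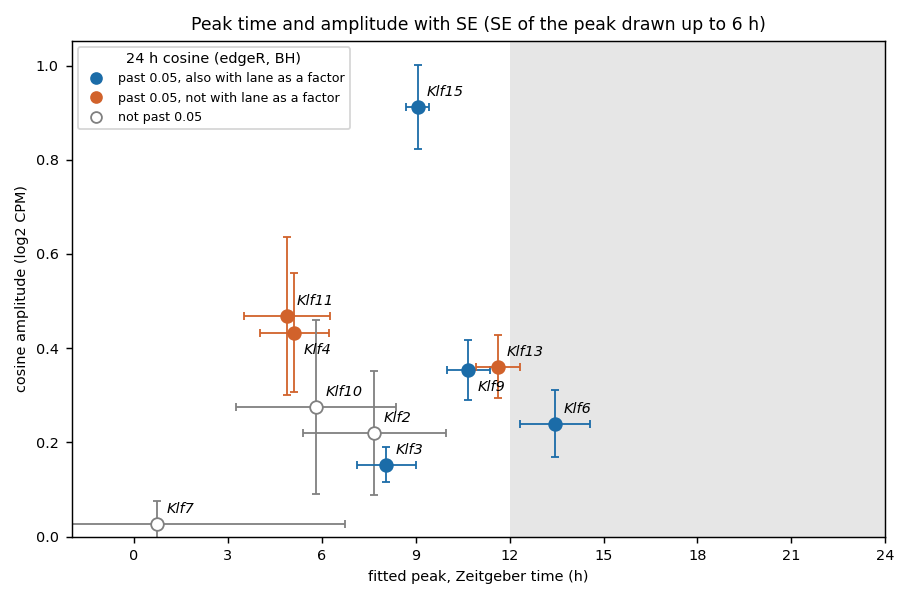
Cosine amplitude in log2 CPM against fitted peak in Zeitgeber time (hours) for the 10 members, with SE bars and colours for whether the 24 h cosine passed 0.05 without and with lane as a factor. Klf15 stands highest at ZT9.06, Klf4 and Klf11 peak near ZT5, Klf6 is the only called member in the dark phase, at ZT13.5, and Klf7 has almost no amplitude.

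Another 4 genes, Klf2, Klf4, Klf10 and Klf11, had their highest mean at ZT3. Klf2 and Klf4 are close relatives; KLF2 holds back adipocyte formation by repressing Pparg, and KLF4 acts early in it. Klf10 and Klf11 are the TGF-beta inducible pair, and KLF11 acts with PPARG in the thermogenic program of adipocytes. Klf2 (ENSMUSG00000055148) is at chr8:72319033-72321656 on the plus strand, Klf4 (ENSMUSG00000003032) at chr4:55527143-55532466 on the minus strand, Klf10 (ENSMUSG00000037465) at chr15:38291463-38300706 on the minus strand and Klf11 (ENSMUSG00000020653) at chr12:24651274-24662789 on the plus strand.

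From ZT0 to ZT3, both on lane 2, 5 members rose and 0 fell, where 7.16% of all genes rose and 6.6% fell (13.8% called). Klf2 had 12.8, 13.1, 15.8 and 18.6 CPM at ZT0 and 26.7, 42.4, 48.4 and 53.3 CPM at ZT3, a 2.83-fold rise (log2 1.502 ± 0.272 SE, adjusted p = 0.000777). Klf4 went from 10.4, 13.5, 15.1 and 15.3 CPM to 18.5, 36.1, 43.1 and 43.8 CPM, a 2.61-fold rise (log2 1.38 ± 0.30, adjusted p = 0.00315). In both, the groups did not overlap, and 1 mouse of ZT3 stood well below the other 3. Klf11 went from 4.62, 9.84, 9.95 and 15.3 CPM to 25.8, 27.7, 28.1 and 68.9 CPM, 3.77-fold (log2 1.92 ± 0.36, adjusted p = 0.00107). Here 1 mouse stood far above the other 3, which were themselves above every mouse of ZT0. Klf10 had 19.0, 35.0, 39.8 and 68.5 CPM at ZT0 and 80.6, 86.5, 96.3 and 124 CPM at ZT3. Those groups did not overlap either, but the adjusted p was 0.0518 (log2 1.25 ± 0.43). Klf9 and Klf3 also rose, by 0.47 ± 0.11 log2 (adjusted p = 0.00527) and 0.32 ± 0.08 log2 (adjusted p = 0.00574). Without the muscle-rich libraries, 2 members, Klf3 and Klf11, were still called in this step, and Klf2 had an adjusted p of 0.0552 at a log2 change of 1.44; with the muscle level as a covariate 6 were called.

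From ZT3 to ZT6 the change passed the test in Klf11 alone. Klf11 fell by 1.37 on the log2 scale from ZT3 to ZT6 (SE 0.35, adjusted p = 0.0361), to 8.97, 12.9, 18.2 and 18.3 CPM, where 1.21% of all genes fell and 0.864% rose (2.08% called), and the mice did not overlap. That call was lost without replicate 1 of ZT3, the mouse at 68.9 CPM (adjusted p = 0.225), without replicate 3 of ZT6 (0.148) and without replicate 4 of ZT6 (0.0943). In the fit of the compared libraries alone it had 0.112. Klf10 had a log2 change of -1.24 ± 0.43 in the same step, also without overlap, with an adjusted p of 0.152 (unadjusted 0.00799). The changes of Klf2 (log2 -0.39, adjusted p = 0.538) and Klf4 (log2 -0.20, adjusted p = 0.797) were small beside the spread of the mice, and whether the 4 genes differ in this step was not tested. Klf2 at ZT6 split into 18.7 and 19.8 CPM against 36.1 and 55.8 CPM, and Klf4 into 16.6 and 18.9 CPM against 37.0 and 50.7 CPM. Klf10 also ranged widely at ZT6, at 19.8, 20.3, 54.3 and 70.1 CPM, and the same 2 mice, replicates 1 and 2, were high for all 3 genes. From ZT9 on the means of Klf4 stayed between 16.0 and 19.5 CPM and those of Klf11 between 9.72 and 13.9 CPM. Klf2 had 25.2, 26.6, 32.8 and 35.3 CPM at ZT12, above all mice of ZT0, which are on another lane (log2 0.99 ± 0.27, adjusted p = 0.0128).

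The tests divided over these genes. Over the 8 time points Klf2 (adjusted p = 0.00317), Klf4 (0.00173) and Klf11 (0.000374) were called by edgeR, whereas the exact JTK test gave P = 1 for Klf2, 0.0635 for Klf4 and 0.685 for Klf11. The cosine called Klf4 (amplitude 0.43 ± 0.13 log2, peak ZT5.12, adjusted p = 0.00442) and Klf11 (0.47 ± 0.17 log2, peak ZT4.89, adjusted p = 0.00999) and not Klf2 (adjusted p = 0.216). Without the muscle-rich libraries the calls over the 8 time points were lost for Klf2 (0.201) and Klf4 (0.113), and so was the cosine of Klf11 (0.0651, amplitude 0.65 log2). Klf10 passed none of these tests, with an adjusted p of 0.062 over the 8 time points. That value was 0.0428 with scaling by library size, 0.0449 with DESeq2, and between 0.0255 and 0.204 when single mice were left out. JTK called Klf4 without any 1 of 7 mice, at P between 0.0172 and 0.0438.

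A list of 14 early response genes, which cells switch on within minutes of a stimulus, was examined because Klf2, Klf4 and Klf10 can be induced in a like manner. None passed the cosine test (edgeR, 0 of 14, where 36.1% of all genes did, and 2 at an unadjusted p under 0.05, where 46.8% did), and 5 differed between time points, a share near the 39.8% of all genes. Their summed level was 547 ± 268 CPM (SD, n = 4) at ZT3 with a range from 237 to 886 CPM, against 258 ± 169 CPM at ZT0. The mice of ZT0, from 106 to 471 CPM, overlapped with those of ZT3. The part of this response in the ZT3 values of the KLF genes was not tested.

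**Figure D3:**
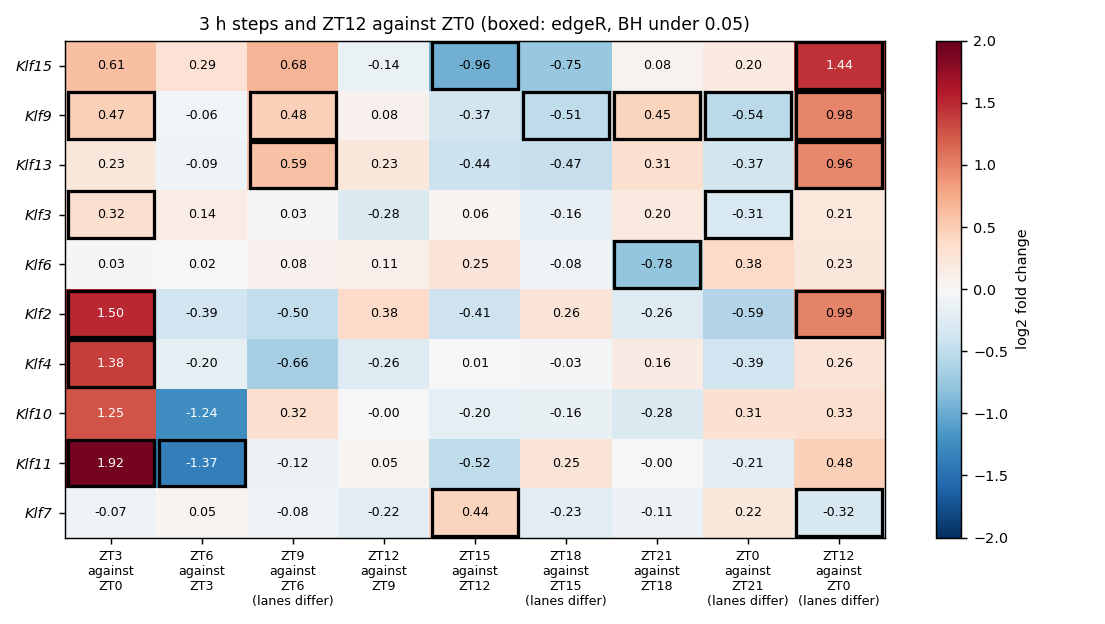
Log2 fold change of each member (rows) between neighbouring time points and at ZT12 against ZT0 (columns), with the values written in and boxes around those with a BH-adjusted p under 0.05 in edgeR. The column of ZT3 against ZT0 holds 5 boxed rises, and no member is boxed from ZT9 to ZT12.

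Klf3, Klf6 and Klf7 had fitted amplitudes under that of Klf9, as had Klf2 and Klf10. KLF3 is a repressor that acts through CtBP and is known to hold back adipocyte formation. Klf3 (ENSMUSG00000029178; chr5:64803388-64832901, plus strand) had 43.4, 44.3, 50.0 and 51.2 CPM at ZT0 and 61.2, 66.7, 67.6 and 70.9 CPM at ZT9. No mouse of ZT0 reached the lowest of ZT9, and the cosine had an amplitude of only 0.15 ± 0.04 log2 with a peak at ZT8.06 ± 0.95 (adjusted p = 0.00703; exact JTK P = 0.000117). Klf3 fell by 0.31 log2 (SE 0.08) from ZT21 to ZT0, across lanes (adjusted p = 0.0114, 0.055 without replicate 2 of ZT0, and 0.0771 in the fit of those 8 libraries alone). In that step 4.22% of all genes fell and 3.5% rose (7.72% called), and Klf3 and Klf9 were the 2 members to fall. An antisense gene shares 3.59% of its exon bases, with 141 counts over all libraries against 32003 for Klf3.

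Klf6 was the late member of the family. KLF6 promotes adipocyte differentiation by repressing the preadipocyte gene Dlk1. Klf6 (ENSMUSG00000000078; chr13:5861482-5870394, plus strand) had 67.2, 73.2, 73.9 and 81.7 CPM at ZT15 and 61.1, 63.8, 71.5 and 83.6 CPM at ZT18, then 33.3, 40.3, 43.1 and 46.2 CPM at ZT21. Every mouse of ZT21 was below every mouse of ZT18, and Klf6 fell by 0.78 on the log2 scale (SE 0.15, adjusted p = 0.00768). In that step, within lane 4, 1 member rose and 1 fell, where 1.24% of all genes rose and 0.826% fell (2.06% called). The fitted peak was at ZT13.5 ± 1.1, with an amplitude of 0.24 ± 0.07 log2 (adjusted p = 0.0154). Without the muscle-rich libraries Klf6 lost these calls: the adjusted p was 0.269 for the cosine (amplitude 0.16 log2), 0.225 for the 8 time points, 0.194 for the cosine with lane and 0.412 for the fall to ZT21, whose size was -0.64 log2 there against -0.78 in all libraries. The muscle sum was 1420 ± 1830 CPM at ZT18 and 1150 ± 1200 CPM at ZT21. With the muscle sum as a covariate in all 32 libraries, Klf6 passed all 4 of these tests. The JTK P of 0.0271 was between 0.0563 and 0.0719 without any 1 of 5 mice of ZT15 or ZT18.

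Klf7, which is best known from neurons and which holds back adipocyte formation, had the smallest cosine amplitude of the 10. Klf7 (ENSMUSG00000025959; chr1:64029447-64122282, minus strand) ranged over all 32 mice from 21.0 to 33.9 CPM. Its cosine amplitude was 0.03 ± 0.05 log2 (adjusted p = 0.925). It had 30.7, 30.9, 32.1 and 32.7 CPM at ZT15 and 21.6, 21.8, 23.1 and 26.8 CPM at ZT12, a difference of 0.44 ± 0.11 log2 without overlap (adjusted p = 0.0242), where 2.03% of genes rose and 1.02% fell (3.04% called). This was lost with scaling by library size (0.0551), in the fit of the compared libraries alone (0.0556) and without any 1 of 5 mice. Without the muscle-rich libraries, which left 1 library of ZT15, it was lost too, at a size of 0.55 log2. The call over the 8 time points (0.0426) was lost without any 1 of 17 mice, at up to 0.094. It was also lost with library size scaling (0.113), with no filter on low counts (0.0662) and without the muscle-rich libraries. An antisense gene shares 39.3% of the exon bases of Klf7, but has 17 counts in all libraries together against 15293 for Klf7.

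Of the other steps, that from ZT6 to ZT9 changes lane, and Klf9 (log2 0.48 ± 0.11, adjusted p = 0.017) and Klf13 (0.59 ± 0.13, adjusted p = 0.0183) rose in it, where 1.08% of all genes did (1.95% called). Both calls were lost without replicate 1 of ZT6 (0.0602 and 0.0571) and without replicate 4 of ZT9 (0.0575 and 0.0908), and that of Klf13 also without replicate 3 of ZT6 (0.0512). From ZT9 to ZT12 no member and no other gene was called (edgeR, 0% of genes, 1047 genes and 1 member, Klf3, at an unadjusted p under 0.05; DESeq2 called 0 members). From ZT12 to ZT15 Klf15 fell by 0.96 log2 (SE 0.22, adjusted p = 0.0167), from 34.1, 52.8, 54.5 and 60.6 CPM to 19.9, 23.2, 25.9 and 34.6 CPM, with 1 mouse of ZT12 just below the highest of ZT15. The adjusted p was 0.0761 without replicate 4 of ZT15, 0.0504 without replicate 2 of ZT12 and 0.0503 without replicate 4 of ZT12. The step from ZT15 to ZT18 also changes lane, and in it 0.748% of all genes fell (1.17% called). Klf9 fell by 0.51 log2 (SE 0.11, adjusted p = 0.0188). That adjusted p was 0.0618 without replicate 3 of ZT15 and 0.062 without replicate 4 of ZT18. ZT12 and ZT0 are on different lanes as well. At ZT12 against ZT0, 4 members were higher (Klf2, Klf9, Klf13 and Klf15) and 1 lower (Klf7), where 7.71% of all genes were higher and 8.15% lower (15.9% called). Klf15 was 2.71-fold higher (log2 1.44 ± 0.23, adjusted p = 8.63e-05), and Klf7 fell by 0.32 log2 with overlap (adjusted p = 0.0439). The Klf7 call was lost without any 1 of 5 mice, at up to 0.161. It was also lost with library size scaling (0.158), with no filter on low counts (0.0717) and in the fit of the compared libraries alone (0.0919).

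Within lanes, the design compares fewer mice but no lane differs. On lane 2 (ZT0, ZT3, ZT6), 6 members differed, Klf2, Klf3, Klf4, Klf9, Klf11 and Klf15, where 13.3% of genes did. On lane 3 (ZT9, ZT12, ZT15) Klf15 alone did (adjusted p = 0.0197), where 1.93% of genes did. On lane 4 (ZT18, ZT21) Klf6 (0.0141) and Klf9 (0.0181) did, where 4.48% of genes did. With lane as an additive factor the 24 h cosine held for Klf3 (adjusted p = 0.00204), Klf6 (0.0117), Klf9 (0.0127) and Klf15 (0.000246), where 17.2% of genes passed. Klf13 had 0.274 there, Klf4 0.12 and Klf11 0.352. Klf6 and Klf9 did not keep this call without the muscle-rich libraries, which left 1 library of ZT15. Klf13 was called within no lane. Within lane 3 its mice of ZT12 and ZT15 did not overlap (means of 118 and 87.3 CPM), with an adjusted p of 0.0699 for that step in the fit of all libraries. Its adjusted p on lanes 2, 3 and 4 was 0.362, 0.221 and 0.132, and on lane 2 it was 0.0407 without replicate 3 of ZT0. The lane 2 count was 2 without replicate 2 of ZT0 or without replicate 3 of ZT3 and 3 without replicate 1 of ZT0, and that of lane 3 was 0 without replicate 2, 3 or 4 of ZT15.

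Among mice killed at the same time, some members rose and fell together. Each gene's log2 CPM was set against the mean of its time point, and 65 relations were tested by permuting mice within time points (two-sided, 100000 resamples): 45 pairs of members, and each member against the summed endothelial markers and the summed early response genes. 5 relations had a BH-adjusted p under 0.05. Klf2 and Klf4 were the closest pair (n = 32, Pearson's r = 0.914, permutation p = 1e-05, the smallest the resamples can give, adjusted p = 0.00065; Spearman's rho = 0.861, permutation p = 2e-05). Without the 2 mice farthest from the median of Klf2, r remained at 0.88. On lane 2 alone it was 0.97, on lane 3 0.611 and on lane 4 0.961. So the mice with high Klf2 at ZT6, for example, were also those with high Klf4.

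Klf10 and Klf11 went together as well (r = 0.655, permutation p = 0.00045, adjusted p = 0.0146; rho = 0.654, permutation p = 0.00068; 0.615 without 2 mice; 0.673, 0.771 and 0.485 by lane). Klf9 and Klf13 had r = 0.633 (permutation p = 0.00335, adjusted p = 0.0435; rho = 0.595, permutation p = 0.00435, adjusted p = 0.0565; 0.665 without 2 mice; 0.586, 0.687 and 0.672 by lane). Klf6 and Klf10 went in opposite directions (r = -0.628, permutation p = 0.00072, adjusted p = 0.0156; rho = -0.619, permutation p = 0.00098; -0.534 without 2 mice; -0.638, -0.625 and -0.694 by lane). Klf6 followed the endothelial markers (r = 0.599, permutation p = 0.00249, adjusted p = 0.0405; rho = 0.622, permutation p = 0.00165; 0.622 without 2 mice; 0.804 and 0.641 on lanes 2 and 3, but 0.0248 on lane 4). When single mice were left out, the adjusted p passed 0.05 in 0 of 32 fits for Klf2 with Klf4 and for Klf10 with Klf11, in 2 for Klf6 with Klf10 (up to 0.0947), in 13 for Klf6 with the endothelial sum (up to 0.111) and in 17 for Klf9 with Klf13 (up to 0.161).

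Klf2 and Klf4 are endothelial genes in many tissues, but no relation of their deviations with the endothelial sum was detected (r = 0.00472 for Klf2, permutation p = 0.986, and r = -0.0233 for Klf4, permutation p = 0.924; rho = 0.095, permutation p = 0.664, and 0.024, permutation p = 0.911). The lanes differed in sign: r on lanes 2, 3 and 4 was -0.33, 0.642 and 0.419 for Klf2 and -0.307, 0.421 and 0.58 for Klf4, and the difference between lanes was not tested. Against the early response sum r was 0.401 for Klf2 (permutation p = 0.0431, adjusted p = 0.351; rho = 0.49, permutation p = 0.0142) and 0.442 for Klf4 (permutation p = 0.0222, adjusted p = 0.207; rho = 0.451, permutation p = 0.0211). Without the 2 farthest mice these were 0.519 and 0.509. The endothelial sum itself was 1120 ± 48 CPM at ZT3, against 1070 ± 134 CPM at ZT0 and 835 ± 40.1 CPM at ZT12, and 3 of its 8 genes passed the cosine, a share near the 36.1% of all genes, Cldn5 (amplitude 0.84 log2) and Kdr (0.25 log2) with the largest amplitudes.

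**Figure D4:**
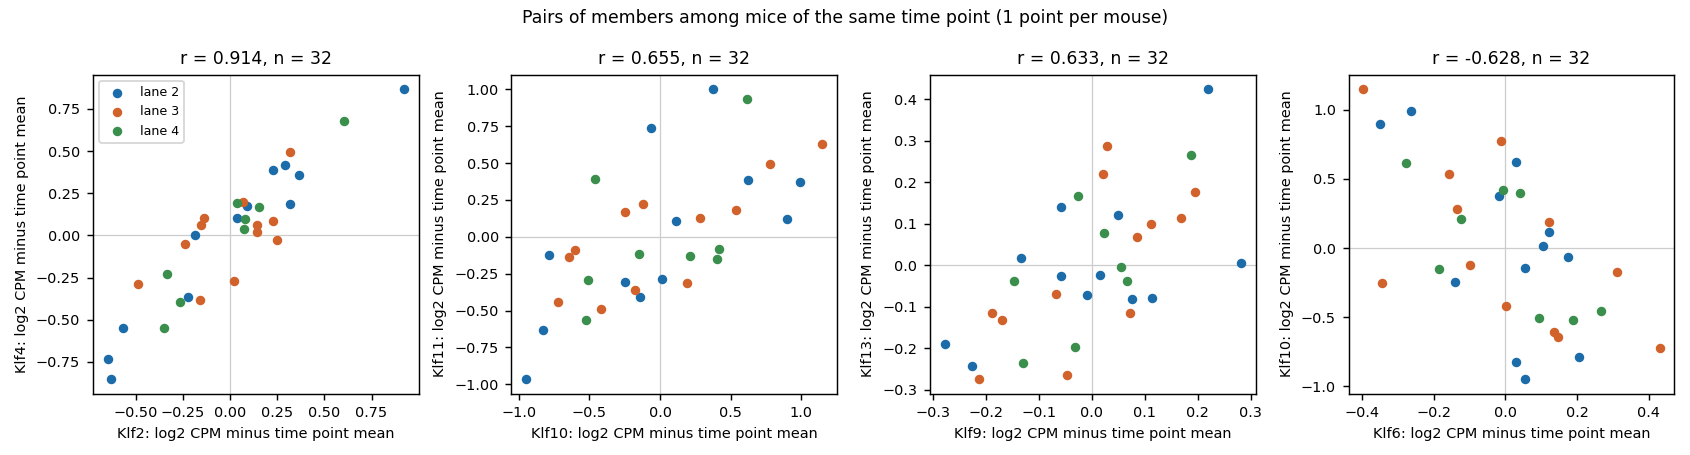
Deviations of log2 CPM from the time point mean for 4 pairs of members, with 1 point per mouse coloured by lane and Pearson's r over 32 mice above each panel. Klf2 and Klf4 lie along a line (r = 0.914), Klf10 with Klf11 and Klf9 with Klf13 scatter more, and Klf6 with Klf10 slopes downwards.

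Per kilobase of exon, Klf9 had the highest mean level, and Klf11 and Klf7 the lowest. Mean levels over 32 mice were 19.3 CPM per kb for Klf9, 14.6 for Klf2, 13.3 for Klf6, 11.9 for Klf10, 11.0 for Klf15, 10.7 for Klf13, 6.79 for Klf4, 5.11 for Klf3, 3.52 for Klf11 and 3.38 for Klf7. Klf9 was above Klf2 in 25 of 32 mice, Klf13 above Klf4 in 27 and Klf3 above Klf11 in 28. Neighbours in the middle of the order were not separated: Klf2 was above Klf6 in 16 mice, Klf10 above Klf15 in 19, Klf15 above Klf13 in 14, and at the low end Klf11 above Klf7 in 13.

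Among 10290 genes outside the 10 members with a mean of at least 5 CPM, the nearest profiles to Klf15 over the 32 libraries were those of Colca2 (r = 0.887) and Selenos (r = 0.882). Of these genes, the nearest to both Klf9 (r = 0.851) and Klf13 (r = 0.853) was Epb41, a protein of the membrane skeleton, followed by Plcg1 for Klf9 (r = 0.814) and Mxd4 for Klf13 (r = 0.85). Klf4 was nearest to Sik1 (r = 0.84), a kinase induced by cAMP, and Apold1 (r = 0.812), an early response gene of endothelium. Klf11 was nearest to Phf13 (r = 0.797) and Id1 (r = 0.752), a target of BMP signalling. Klf3 was nearest to S100pbp (r = 0.863) and Spaca6 (r = 0.845), and Klf6 to Rnd3 (r = 0.857) and Stard9 (r = 0.793). Another member was nearer than at least 1 of these genes for 4 of them: Klf9 and Klf13 had r = 0.891 with each other, Klf4 had 0.846 with Klf2 and Klf11 had 0.763 with Klf10. These are descriptions over libraries that share time, lane and the scaling.

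Relatives and partners of the family had smaller fitted amplitudes than Klf15. Of 16 other KLF and SP genes 8 were expressed enough to be tested, and 3 passed the cosine, a share near the 36.1% of all genes, all with light-phase peaks: Klf16 (amplitude 0.33 log2), Sp3 (0.11 log2) and Sp1 (0.11 log2). With lane as a factor 0 of the 8 passed, where 17.2% of all genes did. Klf5, a promoter of adipogenesis, was not tested, with 97 counts in all libraries together. Of the 6 corepressor genes 4 passed the cosine, against 36.1% of all genes, and 2 passed with lane as a factor, against 17.2%. Sin3a (amplitude 0.21 log2, peak ZT6.07) and Hdac1 (0.14 log2, peak ZT5.78) had the largest amplitudes. Of 8 genes linked to KLF15 in other tissues 7 were tested and 4 passed the cosine, against 36.1% of all genes, with fitted peaks after ZT12. With lane as a factor 2 of the 7 passed, against 17.2%, and Bcat2 (edgeR, adjusted p = 0.92) and Gpt (0.59) did not. Bcat2 (ZT12.2 ± 0.85, SE) and Gpt (ZT12.3 ± 0.95, SE) peaked within their SE of the change from light to dark. Prodh, of proline breakdown, had an amplitude of 0.79 log2 and a peak at ZT15.6, and Slc2a4, the insulin-regulated glucose transporter, had 0.27 log2 and ZT18.3. The peak of Klf15 itself was at ZT9.06, and whether these genes follow it was not tested.

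Glucocorticoid targets and the clock give a frame for these times. Of 11 tested glucocorticoid targets 8 passed the cosine, where 36.1% of all genes did, and 6 passed with lane as a factor, where 17.2% did. Mt2 (amplitude 1.27 log2, peak ZT6.78) and Fkbp5 (1.19 log2, peak ZT15.3) had the largest amplitudes, and the peaks of the 8 were not at a common time. Klf9 and Klf15 peaked between Mt2 and Fkbp5. Of 19 clock genes 17 passed, against the same 36.1%, and 15 passed with lane as a factor. The largest amplitudes were those of Dbp (2.66 log2, peak ZT10.1), a direct E-box target, and Npas2 (2.54 log2, peak ZT0.798). Per1, which glucocorticoids also induce, had 0.99 log2 and ZT11.5. Of 8 tested adipogenic factors 3 passed, a share near the 36.1% of all genes, Srebf1 (0.37 log2, peak ZT15.3) and Ebf1 (0.37 log2, peak ZT2.09) with the largest amplitudes.

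Markers of other cell types were examined too, and their part in the KLF profiles was not tested. Against 36.1% of all genes, the cosine passed in 3 of 6 macrophage genes (Adgre1 and Cd163 with the largest amplitudes, 0.50 and 0.39 log2) and 3 of 4 fibroblast genes (Col1a1 0.44 and Pdgfra 0.31 log2), all with light-phase peaks, and in 3 of 8 brown adipocyte genes (Ucp1 0.43 and Adipoq 0.11 log2). Adgre1 had 1039 of its 3245 counts in replicate 3 of ZT9, where the macrophage sum was also high (235 CPM), and was not called by JTK (exact P = 0.254). The cosine passed in 0 of 4 red blood cell genes (edgeR, 0 also at an unadjusted p under 0.05). The fibroblast sum was 213 ± 27.4 CPM at ZT0 and 356 ± 61.2 CPM at ZT3 without overlap, and the macrophage sum 54.8 ± 13.1 and 94.4 ± 20.6 CPM with overlap, so that both means were higher at ZT3, as were those of Klf2, Klf4 and Klf11.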

How the data were processed

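RNA of iBAT from 32 mice was read in pairs from stranded libraries. The authors mapped reads to mm10 with GSNAP and counted them per Ensembl gene with HTSeq-count (0.6.1); whether counting used the strand is not given in the sources used here. The deposited values are raw counts per gene. The matrix has no rows without a gene. Symbols were found for 50376 of 50686 identifiers. Coordinates and exon lengths are from GENCODE on GRCm38, and promoters from RefSeq on GRCm38.p6.

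The members and gene lists were chosen with earlier results of these data known. Genes were filtered with filterByExpr of edgeR (4.0.16, R 4.3.3), leaving 15505 with 99.9% of counts, and scaled with TMM (factors from 0.923 to 1.09). CPM are after TMM; log2 CPM use a prior count of 2. edgeR's quasi-likelihood test was fitted on all 32 libraries for the 24 h cosine, the 12 h component, the 8 time points, 3 h steps and ZT12 against ZT0, and on each lane alone, with BH adjustment over all tested genes at 0.05. JTK is an own implementation with exact P, templates of 21 and 24 h, corrected for 15 templates. Relations within time points were permuted 100000 times; within lanes only r is given. Named genes are the members, the 2 genes outside the 10 members most like each member with a called cosine, and in each list the 2 called genes of largest amplitude. Sp1, Klf5, Per1, Bcat2, Gpt and the brown adipocyte genes beyond Ucp1 and Adipoq were named after their values were seen. A further marker list is not reported here. A chi-square of counts, averaged over genes, was at least 7.56 in each of 48 pairs of libraries of the same time, so all were treated as separate. Intervals of counting were not used, as mice are the replicates. Alternatives were DESeq2 (1.42.0), other scaling, no filter, single libraries left out and a replicate block; the muscle covariate and the removal of muscle-rich libraries were chosen after seeing the data. The cosine, time point and JTK tests and the ZT12 against ZT0 difference were run on simulated counts beforehand.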

Additional observations from a re-analysis of the deposited data

Results flagged for a closer look

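Over 80 groups of 4 mice (10 members at 8 time points), 4 values stood far from the other 3 mice, above the 95% critical value of Dixon's ratio, and chance flags about 1 in 20 groups. Klf11 in replicate 1 of ZT3 was at 68.9 CPM against 25.8 to 28.1 CPM. Klf11 in replicate 3 of ZT18 was at 15.0 CPM against 10.3 to 10.5 CPM. Klf3 in replicate 1 of ZT15 was at 65.4 CPM against 53.4 to 55.0 CPM, and in replicate 4 of ZT18 at 52.6 CPM with the other 3 mice at 50.4 CPM.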

How the results depend on the processing

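Among members called in a step, none changed direction in that step under the alternatives run. Leaving out 1 library at a time, the number of members called was 7 for the cosine and 4 for the cosine with lane in every fit, 0 for the 12 h component and for ZT9 to ZT12, and 8 to 10 for the 8 time points, 4 to 6 for JTK, 5 to 6 for ZT0 to ZT3, 0 to 1 for ZT3 to ZT6, 0 to 2 for ZT6 to ZT9, 0 to 3 for ZT12 to ZT15, 0 to 2 for ZT15 to ZT18, 1 to 2 for ZT18 to ZT21, 1 to 3 for ZT21 to ZT0, 4 to 6 for ZT12 against ZT0, 2 to 5 for lane 2, 0 to 1 for lane 3 and 2 to 3 for lane 4; relations called were 2 to 7. Without the muscle-rich libraries the counts were 3 for JTK, 5 for the 8 time points, 2 for the cosine with lane, 2 for ZT0 to ZT3, 3 for ZT12 against ZT0 and 0 for each other step; fewer mice were left there. In fits of the compared libraries alone they were 0 for ZT3 to ZT6, ZT6 to ZT9 and ZT12 to ZT15, and 1 for ZT21 to ZT0, which was Klf2, so that neither Klf3 nor Klf9 was called there. Klf3 (0.0565) and Klf9 (0.0632) also lost their call for ZT0 to ZT3 in that fit. For ZT12 to ZT15 library size scaling gave 1 and DESeq2 gave 4, and for ZT15 to ZT18 DESeq2 gave 3; the cause was not tested. Among single results other than left-out libraries, 58 lost and 5 gained a call, and 572 stayed on their side of the threshold. Same-numbered mice deviated together no more than others (median r -0.119 over 112 pairs, against 0.0738), and 4 of 32 libraries correlated best with their own number, so the replicate number does not pair mice. With the replicate block, 7 members had a cosine, 10 differed between time points, 5 passed JTK and 6 rose from ZT0 to ZT3, while within lanes 2, 3 and 4 the counts were 2, 0 and 1.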
